A study of Mus musculus with 6 samples.

Results

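The zinc importers of the LIV-1 type were described in mouse uterus on day 4 of pregnancy. The 7 genes, Slc39a10, Slc39a4, Slc39a5, Slc39a6, Slc39a8, Slc39a12 and Slc39a14, were chosen by symbol as the targeted importer and its relatives of the cell surface. They were found by Ensembl ID among 56748 genes in the tables, and 6 of the 7 were among the 16737 genes with enough counts to be tested. The series compares libraries labelled Zip10 cKO, a conditional knockout of Slc39a10 described as specific to the uterus, with libraries labelled Control, whose genotype is given as WT, both taken at 1600 h on day 4. Each group held 3 libraries. The labels give no strain, age, deleted exons or Cre driver, and do not say that libraries came from separate animals, so the p-values measure the spread between these samples. The tissue is called uterus in the sample labels and endometrium in the series design. The smooth muscle markers Acta2 and Myh11 averaged 2561 and 382 TPM over the 6 libraries, so the levels below include smooth muscle. The uterine genes Pgr, Esr1, Ihh, Hoxa10, Hoxa11 and Hand2 averaged 38.1 TPM or more over the 6 libraries. TPM is the deposited level per transcript length, scaled to a common sum in each library.

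ZIP proteins carry zinc towards the cytosol, from outside the cell or from organelles, and ZnT proteins carry it the opposite way. The LIV-1 branch is the largest of the ZIP family and has a histidine-rich metal site in a transmembrane helix. Slc39a7 and Slc39a13 share that branch but act at internal membranes, and they are read below with the other zinc genes. ZIP6 and ZIP10 can pair into a heteromer, and both import zinc at the plasma membrane. ZIP4 takes up dietary zinc in the intestine, where its loss in humans causes acrodermatitis enteropathica. ZIP8 and ZIP14 also carry manganese, iron and cadmium. Free zinc is sensed by the factor MTF-1, which binds metal response elements and induces the metallothioneins Mt1 and Mt2.

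The upstream sequence of the targeted gene is shown beside that of Mt1, a classic target of MTF-1, because MTF-1 is known to repress Slc39a10 in mouse liver when zinc is ample. Each RefSeq window runs from 250 bases before to 50 bases after a gene start, in build GRCm38.p6. Of the 2 windows of Slc39a10, the printed one is that whose later bases after the start are found in a GENCODE transcript of the gene. The first bases after the start were left out of this search. Matches to the metal response element core, TGCACNC or TGCGCNC on either strand, are in capitals.
Slc39a10, chr1:46853569-46853868, minus strand: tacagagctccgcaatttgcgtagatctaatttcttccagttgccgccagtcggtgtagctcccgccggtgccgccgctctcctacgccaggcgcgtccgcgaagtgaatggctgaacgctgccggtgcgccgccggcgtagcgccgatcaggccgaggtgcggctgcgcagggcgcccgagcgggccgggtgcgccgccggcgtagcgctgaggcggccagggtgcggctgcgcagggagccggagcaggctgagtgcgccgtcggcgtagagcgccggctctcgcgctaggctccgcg
Mt1, chr8:94178839-94179138, plus strand: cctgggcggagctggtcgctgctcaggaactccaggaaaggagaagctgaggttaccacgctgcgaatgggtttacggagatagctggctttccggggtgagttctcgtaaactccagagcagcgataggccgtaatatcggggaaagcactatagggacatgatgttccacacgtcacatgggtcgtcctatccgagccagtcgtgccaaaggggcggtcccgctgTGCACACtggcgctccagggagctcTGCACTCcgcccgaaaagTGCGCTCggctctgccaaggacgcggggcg
The Mt1 window held 3 matches, 2 of them after the start. That of Mt2 held 4, 1 of them after the start, and both Slc39a10 windows held 0. The later bases after the start of the Mt2 window were not found in a GENCODE transcript of the gene. A match stood in 25.7% of the 32851 windows searched, and 3 or more in 1.97%. Among the other importers, 1 of 2 windows of Slc39a5, 1 of 2 of Slc39a8 and 0 of 1 of Slc39a12 held a match. Slc39a4, Slc39a6 and Slc39a14 had no window to search. The letters describe these windows only.

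Total counts ran from 19643069 to 22809574. Zip10 cKO library 1 stood apart, at -1.58 on the first axis of a multidimensional scaling plot, against -0.02 to 0.77 for the other 5. Mitochondrial genes took 3.43% of its counts, against 4.50% to 4.84% in the others. Without it the log2 fold changes were 0.26 for Slc39a10, -0.05 for Slc39a4, -0.12 for Slc39a6, 0.58 for Slc39a8, 1.10 for Slc39a12 and 0.13 for Slc39a14, beside the values given below for all 6 libraries, and none was called by edgeR's quasi-likelihood test.

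Slc39a4 was by far the most abundant importer of the group. Its TPM was 260, 248 and 319 in Zip10 cKO libraries 1, 2 and 3, against 276, 264 and 301 in Control libraries 1, 2 and 3. It ranked first of the 24 ZIP and ZnT genes in each of the 6 libraries, and its median rank among the 16737 genes tested was 389.5, within the top 2.33%. Slc39a14 followed at a mean of 49.0 TPM over the 6 libraries, with a median rank of 2377.5. Slc39a6 averaged 25.4 TPM and had a median rank of 4998.5. Slc39a8 averaged 16.3 TPM and Slc39a10 15.6 TPM, with median ranks of 7456 and 6837.5. Both stood near the middle of the zinc transporters, Slc39a8 at place 13 and Slc39a10 at place 14 of 24 by mean TPM.

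The order of these levels held in each library for most neighbours. Slc39a14 was above Slc39a6 in 6 of 6 libraries, and Slc39a6 above Slc39a10 in 6 of 6. Slc39a6 was above Slc39a8 in 5 of 6 libraries. Slc39a8 and Slc39a10 did not separate, since Slc39a8 was the higher in 3 of 6 libraries. Slc39a12, an importer best known from brain, was near the limit of detection at 0.453 TPM. Slc39a5, known from the basolateral membrane of intestine and pancreas, had 0 counts in all 6 libraries. A count of 0 allows up to 0.149 CPM (read counts relative to the scaled size of the library) in the shallowest library, from a floor of 3 counts that covers counting error only.

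**Figure D1:**
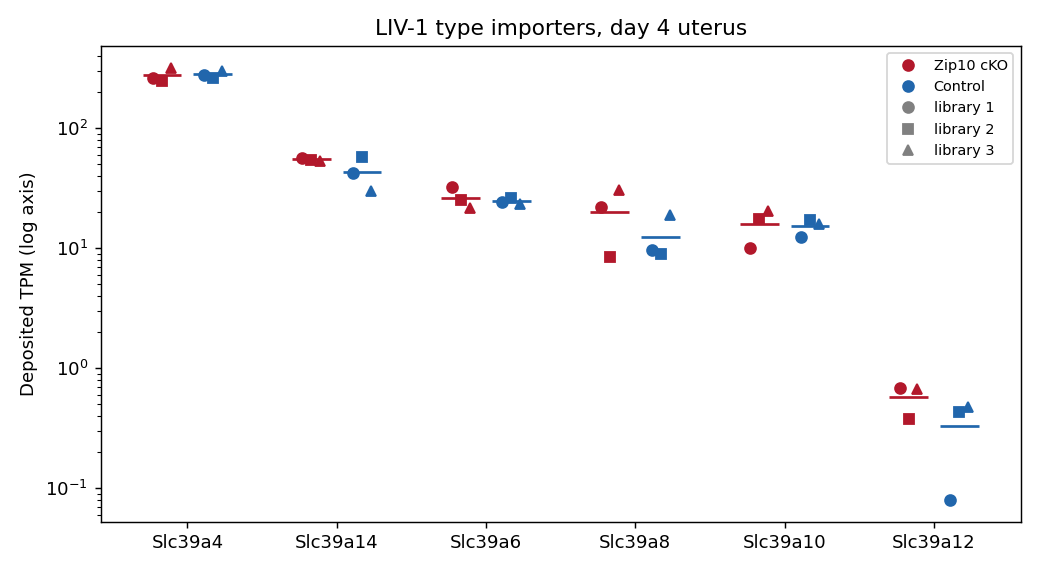
Deposited TPM of 6 importers on a log axis, with each point a library (symbol shape gives its number), red for Zip10 cKO and blue for Control, and bars for group means. Slc39a4 lies far above the other importers, and the groups overlap for every gene; Slc39a5 had no counts and is not drawn.

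No loss of the target's transcripts was seen in the gene totals of libraries labelled Zip10 cKO. Slc39a10 (ENSMUSG00000025986, chromosome 1) had 832, 1576 and 1606 counts in Zip10 cKO libraries 1, 2 and 3, against 1243, 1425 and 1402 in Control libraries 1, 2 and 3. Its TPM was 10.1, 17.4 and 20.4 in Zip10 cKO libraries, against 12.3, 17.3 and 16.0 in Control libraries. Both the lowest and the highest library were Zip10 cKO, so the groups overlapped fully. After TMM scaling, which sets libraries on a common size, the means were 63.9 ± 21.4 CPM in Zip10 cKO and 63.7 ± 8.17 CPM in Control libraries (SD, n = 3 each). The fold was 1.00, with a 95% interval from 0.678 to 1.49 (edgeR adjusted p = 0.998). An exact two-sided permutation test gave p = 1 for CPM and p = 0.8 for TPM, where 3 against 3 cannot go below 0.1. In bulk tissue, fewer cells of a type and less RNA per cell cannot be told apart. A gene total also counts reads of exons that stay after a deletion, so it does not check the genotype labels.

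The RSEM tables hold a further reading of Slc39a10. The gene length they list is the mean over its transcripts weighted by estimated abundance, and so follows the mix of transcripts. For Slc39a10, with 4 transcripts of 497 to 5498 bases, the length was 5498 bases in Zip10 cKO libraries 1 and 2 and 5384 in Zip10 cKO library 3, against 5498 in all 3 Control libraries. In 5 of 6 libraries all estimated abundance therefore lay on the longest coding transcript, within the 0.01 base that the tables give. Only Zip10 cKO library 3 assigned some to a shorter one. The group means differed by -37.9 bases (exact two-sided permutation p = 1), all of it from that library. The transcripts are those of the annotation, so a transcript lacking a deleted exon, if not annotated, would not be seen here.

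Slc39a6 encodes the partner of ZIP10. It had 83.3, 70.0 and 59.7 CPM in Zip10 cKO libraries 1, 2 and 3, against 71.6, 72.1 and 67.2 CPM in Control libraries 1, 2 and 3. Zip10 cKO libraries spread to both sides of the Control libraries. The log2 fold change was 0.01 ± 0.13 (SE), with a fold interval from 0.827 to 1.23 (edgeR adjusted p = 0.986). With library totals in place of TMM, the sign of both Slc39a6 and Slc39a10 turned, at values near 0. Slc39a6 was highest in the Zip10 cKO library where Slc39a10 was lowest, and lowest in the Zip10 cKO library where Slc39a10 was highest. The former was Zip10 cKO library 1, which stood apart from the others, and an order of 3 libraries is weak evidence of any link. Control libraries did not show this order, since both genes were highest in Control library 2, at 72.1 and 70.4 CPM. The TPM of Slc39a6 over that of Slc39a10 was 3.16, 1.45 and 1.06 in Zip10 cKO libraries 1, 2 and 3, against 1.96, 1.51 and 1.46 in Control libraries. The group means of this ratio were 1.89 ± 1.12 in Zip10 cKO and 1.64 ± 0.276 in Control libraries (SD, n = 3 each), so they differed by less than their spread.

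Slc39a4, the main importer by level, had 395, 393 and 479 CPM in Zip10 cKO libraries 1, 2 and 3, against 469, 413 and 468 CPM in Control libraries. The ranges overlapped. Its log2 fold change was -0.09 ± 0.12 (SE), and the fold interval ran from 0.777 to 1.13 (edgeR adjusted p = 0.872). A rise of Slc39a4 above 1.13-fold therefore lay outside the interval from all 6 libraries. Without Zip10 cKO library 2 the interval ended at 1.23-fold. Its weighted length differed by 6.04 bases between the group means (exact two-sided permutation p = 0.9), from 4 transcripts.

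Slc39a14, whose protein carries iron and manganese beside zinc and is induced by interleukins in liver, had 150, 146 and 135 CPM in Zip10 cKO libraries 1, 2 and 3, against 141, 152 and 91.4 CPM in Control libraries 1, 2 and 3. The Zip10 cKO libraries lay close together, and Control library 3 was low. The log2 fold change was 0.16 ± 0.18 (SE), with a fold interval from 0.842 to 1.49 (edgeR adjusted p = 0.851). Without Control library 3 it was -0.042. Slc39a14 has 13 listed transcripts of 364 to 5117 bases, and its weighted length was 3801, 3630 and 3526 bases in Zip10 cKO libraries 1, 2 and 3, against 4183, 3658 and 4102 bases in Control libraries 1, 2 and 3. The mean was 3652 ± 139 bases in Zip10 cKO and 3981 ± 283 bases in Control libraries (SD, n = 3 each), a difference of -329 bases. Control library 2 lay among the Zip10 cKO libraries, and the exact two-sided permutation test gave p = 0.2. Weighted lengths were compared for 6 importers, and none could pass 0.05 in this design. On deposited TPM, which divides by length and was scaled and fitted in another way, the log2 fold change of Slc39a14 was 0.38 with a pseudocount of 1 (limma adjusted p = 0.727), beside 0.16 from counts.

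**Figure D2:**
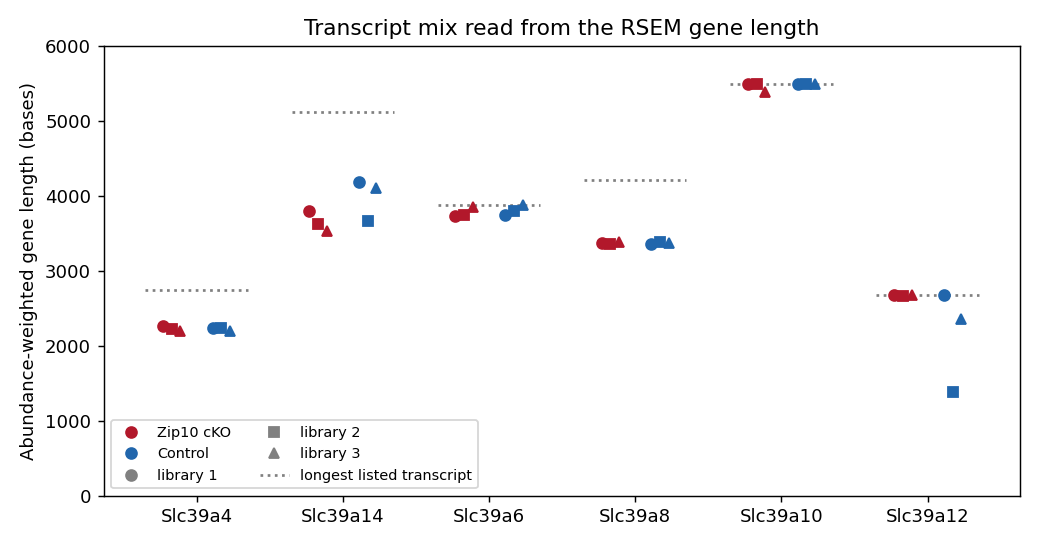
Abundance-weighted gene length in bases for 6 importers, with each point a library (symbol shape gives its number), red for Zip10 cKO and blue for Control, and dotted lines for the longest listed transcript of each gene. Slc39a10 sits on its longest transcript in 5 of 6 libraries, while Slc39a14 varies from 3526 to 4183 bases and Slc39a12, with few counts, from 1384 to 2675 bases.

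Slc39a8 varied most among the importers with ample counts. ZIP8 carries zinc, manganese and cadmium and is known from lung. It had 51.0, 21.0 and 72.8 CPM in Zip10 cKO libraries 1, 2 and 3, against 25.7, 22.0 and 46.6 CPM in Control libraries 1, 2 and 3. The lowest and the highest library were both Zip10 cKO, 3.46-fold apart. Within the groups the SD was 53.8% of the mean in Zip10 cKO and 42.2% in Control libraries. The log2 fold change was 0.62 ± 0.46 (SE), with a fold interval from 0.724 to 3.26 (edgeR adjusted p = 0.785). It was 0.20 without Zip10 cKO library 3, 1.01 without Control library 3 and 0.97 without Zip10 cKO library 2. A 2-fold rise of Slc39a8 was thus within the interval. With the replicate number as a block the log2 fold change was 0.54, at an unadjusted p of 0.0316 (edgeR adjusted p = 0.614). The Zip10 cKO library was the higher in only 2 of the 3 same-numbered pairs, and the labels do not say what a number shares.

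Slc39a12 had 26, 16 and 25 counts in Zip10 cKO libraries 1, 2 and 3, against 4, 8 and 17 in Control libraries 1, 2 and 3. The groups overlapped by the Control library with 17 counts. Its means were 1.07 ± 0.290 CPM in Zip10 cKO and 0.458 ± 0.318 CPM in Control libraries (SD, n = 3 each). The log2 fold change was 1.22 ± 0.52 (SE), with a fold interval from 1.03 to 5.28, and it did not pass the correction (edgeR adjusted p = 0.747, or 0.614 with the replicate block). It was 1.89 without Control library 3, and 0.25 on deposited TPM with a pseudocount of 1, which exceeds its level in every library. Its TPM was 0.38 to 0.68 in Zip10 cKO and 0.08 to 0.48 in Control libraries.

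Of the 6 importers tested, 0 were called by edgeR's quasi-likelihood test at the 0.05 threshold after Benjamini-Hochberg adjustment, and so were 0% of all 16737 genes. At an unadjusted p under 0.05 there was 1 of 6, Slc39a12, where 6.46% of all genes were below it and 4.48% were below it and higher in Zip10 cKO. With the replicate block there were 2 of 6, Slc39a8 and Slc39a12, against 8.09% of all genes. DESeq2, which called 37 genes of the whole table, called 0 of the 6 importers and had 0 of them at an unadjusted p under 0.05. Groups of CPM that did not overlap were found for 0 of the 6, against 12.7% of all genes, or 6.93% counting those higher in Zip10 cKO. Of the 6 log2 fold changes 5 were positive, with those of Slc39a10 and Slc39a6 near 0 and negative under library totals, and the median was 0.09, against -0.0024 for all genes tested. The question whether another importer rises where Slc39a10 is targeted meets here a target whose own total was not lower. With all 6 libraries in edgeR's fit, the 95% intervals ended at 1.13-fold for Slc39a4, 1.23-fold for Slc39a6 and 1.49-fold for Slc39a14. With a library left out, they ended at up to 1.23-fold, 1.31-fold and 1.67-fold. The intervals of Slc39a8 and Slc39a12 were wide.

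**Figure D3:**
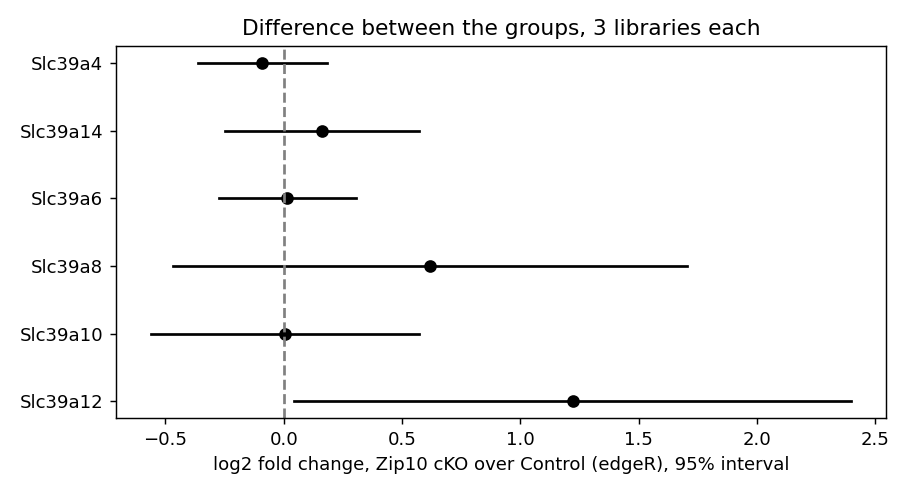
Log2 fold change of Zip10 cKO over Control libraries for 6 importers (points, 3 libraries per group) with 95% intervals from edgeR's quasi-likelihood fit. The intervals of Slc39a4 and Slc39a6 are narrow around 0, that of Slc39a8 is wide, and that of Slc39a12 starts just above 0 before correction.

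The pooled level of the importers was also close between the groups. The summed TPM of the 7 genes was 381, 353 and 446 in Zip10 cKO libraries 1, 2 and 3, against 364, 374 and 390 in Control libraries. Without Slc39a10 the sum was 377 ± 45.1 in Zip10 cKO and 361 ± 11.8 in Control libraries (SD, n = 3 each). Slc39a10 made up 2.66% to 4.93% of the pool in Zip10 cKO and 3.37% to 4.63% in Control libraries. The share of Slc39a4 was 68.2% to 71.6% in Zip10 cKO and 70.5% to 77.3% in Control libraries.

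The library patterns of the importers differed from each other. On centred log2(CPM + 1), Slc39a10 deviated by -0.64 in Zip10 cKO library 1 and by 0.35 in Zip10 cKO library 3. Over the 6 libraries, genes with a pattern close to Slc39a10 among 10762 genes of at least 10 CPM included Serinc5, Rnf150, Armh4 and Phactr1, with mean absolute differences of 0.06, 0.06, 0.07 and 0.09 log2 units. For Slc39a8 the closest, a search added after its values were seen, were Pla2g7 at 0.14, Rassf4 at 0.19, Rtn1 at 0.20, Sox9 at 0.20 and Tmem213 at 0.22 log2 units. For Slc39a14, likewise added, they were Cnnm4 at 0.04, Trib1 at 0.07 and Gadd45g at 0.08 log2 units. With 6 libraries such a likeness describes these libraries only.

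**Figure D4:**
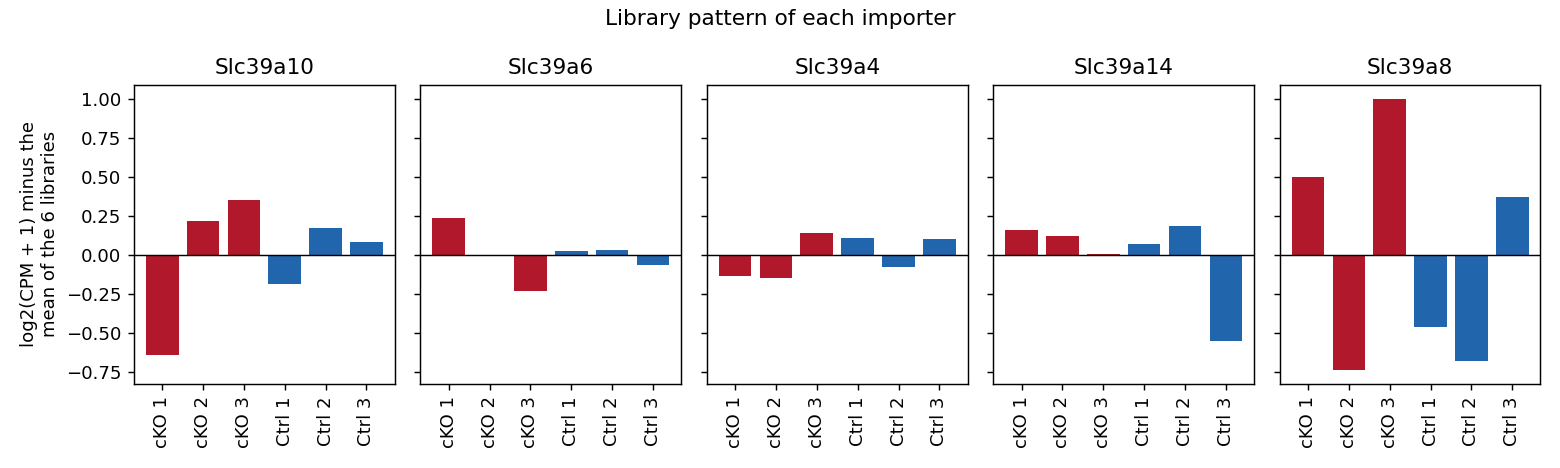
Deviation of log2(CPM + 1) from the mean of the 6 libraries for 5 importers, with Zip10 cKO libraries in red on the left and Control libraries in blue on the right of each panel. Slc39a10 is low in Zip10 cKO library 1, Slc39a14 is low in Control library 3, and Slc39a8 is high in Zip10 cKO libraries 1 and 3 and in Control library 3.

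The other genes of zinc and metal handling were read from a list of 29, of which 24 were tested. Neither edgeR's quasi-likelihood test nor DESeq2 called any of them, 13 had a positive and 11 a negative log2 fold change, and the median was 0.08. At an unadjusted p under 0.05 there was 1 of the 24 in the edgeR test, Mt2, where 6.46% of all genes were below it. Groups did not overlap for 3 of the 24, Slc30a4 with higher and Mt2 and Mt3 with lower values in Zip10 cKO. That share was close to the 12.7% of all genes, and Mt3 averaged only 1.05 CPM in Zip10 cKO and 1.36 CPM in Control libraries. Mt2, a metallothionein that buffers zinc, had 104, 119 and 125 CPM in Zip10 cKO libraries 1, 2 and 3, against 229, 181 and 135 CPM in Control libraries 1, 2 and 3. All Zip10 cKO libraries lay below all Control libraries, and the log2 fold change was -0.65 ± 0.18 (SE), with an edgeR adjusted p of 0.747. Mt1 had 112, 152 and 132 CPM in Zip10 cKO libraries, against 192, 164 and 138 CPM in Control libraries. The groups overlapped, at a log2 fold change of -0.32 ± 0.15 (SE).

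Slc30a4, a ZnT exporter into vesicles, was at 77.9 ± 2.54 CPM in Zip10 cKO and 69.4 ± 1.74 CPM in Control libraries (SD, n = 3 each), with groups that did not overlap and a log2 fold change of 0.17 ± 0.08 (SE; edgeR adjusted p = 0.747). Slc30a1, the ZnT exporter of the plasma membrane, gave -0.02 ± 0.28. Of the ZIP proteins of internal membranes, Slc39a7 gave 0.08 ± 0.14 and Slc39a13 0.14 ± 0.15. Slc39a11 gave -0.23 ± 0.14 and Slc39a9 0.15 ± 0.10, all as log2 fold change with SE. Among iron and manganese genes, Cp, the ferroxidase ceruloplasmin, gave 0.64 ± 0.35, Tfrc, the transferrin receptor, 0.23 ± 0.14, and the iron importer Slc11a2 0.16 ± 0.11.

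Summed markers of several cell types also differed between the libraries; CPM is not per length, so it does not rank the markers by level. Summed macrophage markers, with the highest CPM for Csf1r and Mrc1 and with a positive log2 fold change for 6 of 6, were 140 to 299 CPM in Zip10 cKO and 111 to 145 CPM in Control libraries. Smooth muscle markers, with the highest CPM for Acta2 and Myh11 and with a positive log2 fold change for 8 of 8, summed to 10770 to 15010 CPM in Zip10 cKO and 6224 to 11431 CPM in Control libraries. Stromal markers had the highest CPM for Col3a1 and Col1a1, with 5 of 10 positive. They summed to 11850 to 13670 CPM in Zip10 cKO and 8948 to 11218 CPM in Control libraries. Most of this sum was Col3a1 and Col1a1, with log2 fold changes of 0.49 and 0.48. The 5 negative values were -0.16 for Hoxa10, -0.26 for Hoxa11, -0.26 for Hand2, -0.23 for Nr2f2 and -0.02 for Vim. The sum therefore does not show a rise of stromal markers in general. Epithelial markers, with the highest CPM for Cldn3 and Cdh1 and with 1 of 10 positive, summed to 739 to 1091 CPM in Zip10 cKO and 891 to 1342 CPM in Control libraries. Lymphocyte markers had the highest CPM for Ptprc and Prf1, with 6 of 7 positive. They summed to 87.5 to 126 CPM in Zip10 cKO and 65.0 to 74.3 CPM in Control libraries. Most of this sum was Ptprc, at 58.1 to 91.3 CPM in Zip10 cKO and 43.7 to 54.1 CPM in Control libraries. The sum therefore mainly follows that 1 gene. Endothelial markers, with 1 of 6 positive, summed to 734 to 833 CPM in Zip10 cKO and 737 to 938 CPM in Control libraries. Red blood cell markers, with 5 of 5 positive, summed to 195 to 254 CPM in Zip10 cKO and 118 to 218 CPM in Control libraries. No marker was at 0 in any library, and edgeR's test called none. The macrophage sum was 299, 140 and 189 CPM in Zip10 cKO libraries 1, 2 and 3, against 124, 111 and 145 CPM in Control libraries 1, 2 and 3. Its 3 highest libraries, Zip10 cKO 1 and 3 and Control 3, were also the 3 highest for Slc39a8, though in another order. Control 3 at 145 CPM was barely above Zip10 cKO 2 at 140 CPM. Of the marker sums, only this one was set beside Slc39a8. The part of these cell type markers in the importers' values was not tested.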

How the data were processed

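Uterine RNA was sequenced in 6 libraries, grouped by sample title. Poly(A) selection, fragmentation and random priming are per the labels' protocols. Build GRCm39 (mm39) and the tools edgeR 3.38.4, R 4.2.1, RSEM 1.3.3, STAR 2.7.10a and fastp 0.23.2 are per the submitters' processing notes. Neither the strand setting nor the annotation release is given in the sources used here. Per the file headers, the authors deposited RSEM tables of expected counts, which split reads shared between genes. The deposited TPM and FPKM divide counts by effective length; lengths are in bases. Of 56748 gene IDs, 52073 matched a symbol in GENCODE M21, used only for names, transcript lengths and overlaps. No exon of the 7 importers overlapped another gene there.

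Expected counts were rounded, filtered by filterByExpr (minimum count 10, minimum total 15), scaled by TMM and tested with edgeR 4.0.16 (quasi-likelihood, robust) in R 4.3.3, two-sided, with Benjamini-Hochberg adjustment over 16737 genes and a threshold of 0.05. The SE comes from the F statistic. CPM are after TMM, and SD is over 3 libraries. Levels are compared between genes by TPM. Alternatives were DESeq2 1.42.0, other normalizations and filters, limma 3.58.1 on log2 TPM with pseudocounts of 1 and 0.1, a replicate block and leaving out each library. Scripts were tested on simulated counts.

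Deviations of same-numbered libraries from their group means correlated at 0.105, 0.287 and 0.221 over 16737 genes for numbers 1, 2 and 3. The main test was unpaired, and the number served as a block only in an alternative fit. The first pair does not stand out, since Zip10 cKO 1 with Control 3 gave 0.141 and Zip10 cKO 2 with Control 1 gave 0.104. The labels do not say what a number shares. Library pairs differed beyond sampling noise (chi-square per degree of freedom at least 14.2). The named genes were the 7 importers, Mt1, Mt2, Slc39a7, Slc39a13, Slc30a1 and the 6 other metal genes of smallest p, the 5 genes closest in pattern to Slc39a10 (1 of them is not reported here) and the 2 markers of a cell type with the highest mean CPM; genes close to other importers, and Mt3, were named after their values were seen. The 5 stromal markers with a negative log2 fold change were also named after their values were seen. The members and lists were chosen with earlier results of these data known. Promoter windows are RefSeq's. Figures were drawn with matplotlib 3.10.9.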

Additional observations from a re-analysis of the deposited data

How the results depend on the processing

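No importer and none of the other metal genes passed an adjusted p of 0.05 under any alternative run, and the lowest adjusted p of an importer over 83 such values was 0.516. Counts of genes called over the whole table were 0 in edgeR's quasi-likelihood test, 15 with no filter on low counts (1534 at an unadjusted p under 0.05), 37 with DESeq2 (1201) and 0 to 2 with a library left out (2 without Zip10 cKO library 1). The log2 fold change of Slc39a10 turned sign at -0.0044 with library totals, -0.00027 with no filter, -0.0037 with a filter of 1 CPM in 3 libraries, -0.0020 with DESeq2 and -0.048 with the replicate block, and ran from -0.19 to 0.26 with a library left out. The block changed no call after adjustment. Slc39a6 gave -0.00012 with library totals, and -0.12 to 0.12 with a library left out, and Slc39a14 -0.042 (without Control library 3) to 0.30. Slc39a4 (-0.19 to -0.05), Slc39a8 (0.20 to 1.01) and Slc39a12 (0.82 to 1.89) kept their sign. Differences in weighted length ran, with a library left out, from -56.9 to 0 bases for Slc39a10, -12.0 to 23.3 for Slc39a4, -75.8 to 0.383 for Slc39a6, -4.99 to 8.68 for Slc39a8, 154 to 799 for Slc39a12 and -490 to -228 for Slc39a14. Ranked by CPM, which is not per length, the median rank was 3348 for Slc39a10, 272.5 for Slc39a4, 3265.5 for Slc39a6 and 1267.5 for Slc39a14; over all genes of the table it was 17018 for Slc39a12. The cause of the changes in called genes and in signs was not tested. Slc39a12 was removed by that filter. Depth limits Slc39a12 and Slc39a5.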
